A study of Homo sapiens with 8 samples.

Results

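The 10 genes described here are ZMYND8 and 9 genes that code for subunits of the NuRD complex, namely CHD4, GATAD2A, GATAD2B, HDAC1, HDAC2, MTA1, MTA2, MTA3 and RBBP4. They were chosen by name and all 10 were found among the 60659 genes of the count table. NuRD is a nuclear complex that joins a chromatin remodelling motor (CHD4 or its relatives CHD3 and CHD5) to histone deacetylases (HDAC1 and HDAC2). The MTA proteins form its scaffold and hold the deacetylases, RBBP4 and RBBP7 bind histones, MBD2 or MBD3 bridges to DNA, and GATAD2A or GATAD2B links the remodelling and deacetylase modules. ZMYND8 is a chromatin reader with a PHD finger, a bromodomain, a PWWP domain and a MYND domain, and it is known to contact NuRD through GATAD2A.

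RNA was read by sequencing, after removal of ribosomal RNA, in SK-N-SH cells, an established human neuroblastoma line that differentiates towards neurons under all-trans retinoic acid (ATRA). All 4 groups had received 10 µM ATRA for 24 h, so no library shows the genes without ATRA. The groups, each of 2 biological replicates, were parental cells given doxycycline (Dox), cells that carried Dox-inducible FLAG-tagged ZMYND8 and were given Dox (ZMYND8 overexpression), control knockdown cells (KD control) and cells with ZMYND8 knockdown. According to the study's methods, ZMYND8 came from the lentiviral vector pInducer20 in a pool selected with G418. For knockdown they describe lentiviral shRNA in pLKO.1, with puromycin doses for SH-SY5Y cells and neural stem cells. They do not state how knockdown was done in SK-N-SH cells. The parental cells are named without a vector, so vector, selection and ZMYND8 level changed together in the overexpression comparison. The KD control and knockdown groups had no Dox label, and the counts do not separate FLAG-ZMYND8 from the cells' own ZMYND8.

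The libraries held 38316523 to 56256979 counts on genes. Mitochondrial genes took 0.11% to 0.17% of the counts in the parental and overexpression libraries and 2.92% to 3.41% in the KD control and knockdown libraries, so the 2 experiments stand apart. The labels call the cells neuroblastoma epithelial cells. Of 4 epithelial markers, CDH1 had no count in any KD control or knockdown library and at most 12 elsewhere. The other 3 were present in every library, EPCAM with 22 to 56 counts, KRT8 with 878 to 3954 and KRT18 with 6454 to 21192. Summed levels of 8 adrenergic neuroblastoma markers were 127 to 128 FPKM in the parental libraries, 341 to 354 with ZMYND8 overexpression, 244 to 258 in KD control and 191 to 214 with knockdown. For 6 mesenchymal markers the sums were 750 to 765, 278 to 314, 333 to 346 and 419 to 440 FPKM in the same order. With knockdown VIM, CD44 and YAP1 of these passed as higher, and PRRX1 (-0.98) and SNAI2 (-0.41) as lower. TH had 0 counts in the KD control and knockdown libraries and 0 to 5 in the others. The 4 epithelial markers, which include KRT8 and KRT18, summed to 139 to 140, 48.6 to 66.0, 115 to 135 and 125 to 140 FPKM. The 3 blood markers stayed at or below 0.211 FPKM in sum, with HBB at 0 in all libraries. Summed levels of 8 proliferation markers were 341 to 347, 316 to 347, 158 to 172 and 143 to 155 FPKM. The part of cell state in the differences given here was not tested, and in bulk RNA fewer cells of a state and less RNA per cell cannot be told apart.

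The genes lie on 8 chromosomes of GRCh38. ZMYND8 occupies chr20:47209214-47356889 on the minus strand, CHD4 chr12:6570082-6614524 (minus), GATAD2A chr19:19385826-19508931 (plus), GATAD2B chr1:153789030-153923360 (minus) and HDAC1 chr1:32292083-32333635 (plus). HDAC2 occupies chr6:113933028-114011308 (minus), MTA1 chr14:105419820-105470729 (plus), MTA2 chr11:62593214-62601865 (minus), MTA3 chr2:42494569-42756947 (plus) and RBBP4 chr1:32651142-32686211 (plus). Counts were summed over all exons of a gene, untranslated parts included.

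The upstream sequences of the 3 MTA genes are shown because calls differed within this scaffold family when ZMYND8 was overexpressed. They are RefSeq sequences of GRCh38.p14, written 5′ to 3′ on the gene's strand and ending just before the RefSeq start of the gene or, for MTA1, before its start in GENCODE, and capitals mark the GC box GGGCGG on either strand, a motif bound by SP1-family factors.
MTA1, chr14:105419577-105419819, plus strand: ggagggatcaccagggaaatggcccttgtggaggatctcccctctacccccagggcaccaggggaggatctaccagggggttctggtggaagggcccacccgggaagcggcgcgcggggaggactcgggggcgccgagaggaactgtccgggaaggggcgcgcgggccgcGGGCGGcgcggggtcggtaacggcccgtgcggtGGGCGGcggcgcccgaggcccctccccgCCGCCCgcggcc
MTA2, chr11:62601866-62602115, minus strand: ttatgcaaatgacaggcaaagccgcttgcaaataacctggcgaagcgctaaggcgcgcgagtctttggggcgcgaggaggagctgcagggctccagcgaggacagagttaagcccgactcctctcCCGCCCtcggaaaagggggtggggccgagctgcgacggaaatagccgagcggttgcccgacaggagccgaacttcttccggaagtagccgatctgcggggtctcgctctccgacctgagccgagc
MTA3, chr2:42493860-42494109, plus strand: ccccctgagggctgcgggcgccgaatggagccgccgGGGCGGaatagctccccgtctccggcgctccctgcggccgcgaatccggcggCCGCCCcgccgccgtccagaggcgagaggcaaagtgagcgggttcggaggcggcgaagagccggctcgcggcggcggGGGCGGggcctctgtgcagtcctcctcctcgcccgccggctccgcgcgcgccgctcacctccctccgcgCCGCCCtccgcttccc
The MTA3 sequence held 4 GC boxes, that of MTA1 3 and that of MTA2 1. MTA2 and MTA3 each have another RefSeq start, not printed, whose windows of 300 bases held 1 and 0 GC boxes. In windows of 300 bases around RefSeq gene starts, GGGCGG on either strand occurred in 12 of the 15 windows of the 10 genes and in 45.0% of 35116 windows of all genes. AGGTCA on either strand, the half-site of many nuclear receptors, was in 0 of the 15 windows and in 13.8% of all windows. A match describes letters in these windows and says nothing of binding.

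ZMYND8 itself was read first, because it checks the labels. Its level per exon length and library depth (FPKM) was 9.62 and 9.37 in the parental libraries, 520 and 519 with overexpression, 7.89 and 8.11 in KD control, and 4.17 and 4.18 with knockdown. The overexpression libraries were far above all others, the knockdown libraries were the lowest, and the groups did not overlap. Against parental cells ZMYND8 had a log2 fold change of 5.87 ± 0.06 (SE, n = 2 against 2, adjusted p = 5.04e-12), a 58.0-fold ratio of mean counts scaled within the comparison. Ratios and percent changes of mean counts rest on that scale, set over all genes. Log2 fold changes were also scaled within the comparison, but over the genes tested only. FPKM levels were scaled over all genes and all 8 libraries. With overexpression the change in FPKM lay about 0.09 below the log2 fold change for each of the 10 genes, which turns the sign of the smallest values. With knockdown these 2 scales gave nearly the same values. ZMYND8 took 0.467% and 0.477% of all counts in the overexpression libraries. Against KD control its log2 fold change was -0.94 ± 0.06 (SE, adjusted p = 2.20e-06), and its mean fell by 47.6%. The rise in one experiment was thus many times the size of the fall in the other.

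**Figure D1:**
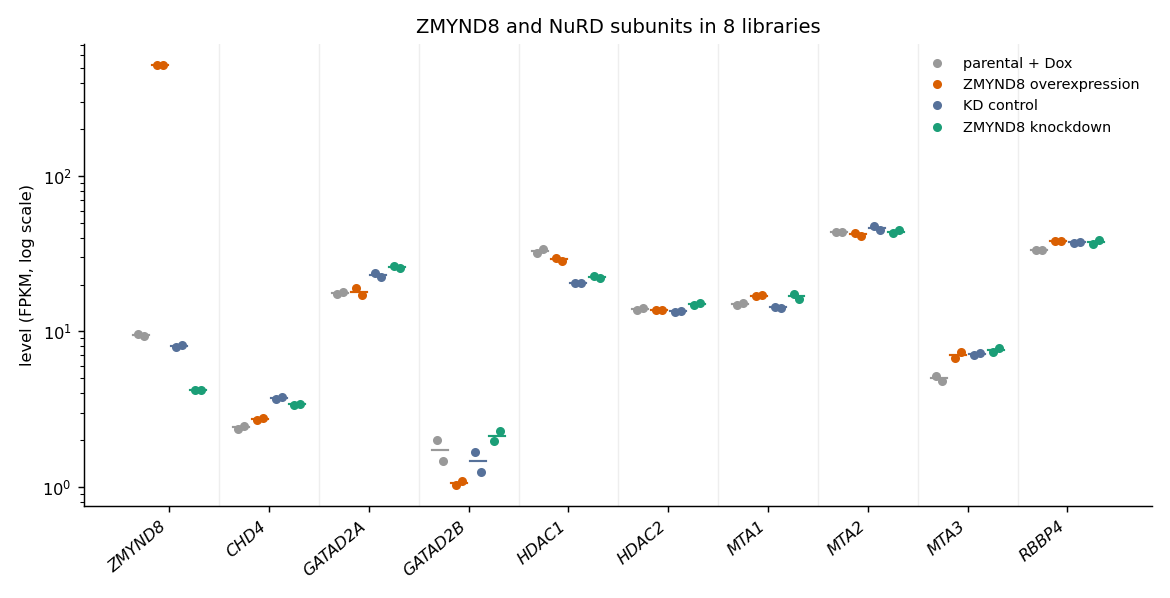
Level of ZMYND8 and 9 NuRD subunits in each of the 8 libraries, in FPKM on a log axis. Points are libraries and the short lines are the means of 2. ZMYND8 spans 4.17 to 520 FPKM, and each subunit stays within a far narrower band.

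Per length, MTA2 was the most abundant subunit in all 4 groups, at 43.6 ± 0.09 FPKM (SD, n = 2) in parental cells and 42.2 to 46.4 FPKM in the group means elsewhere. RBBP4 followed at 33.4 to 38.2 FPKM. HDAC1 came next in the parental and overexpression groups, at 32.8 and 29.0 FPKM, and fell behind GATAD2A in KD control and knockdown, at 20.6 and 22.4 FPKM. In parental cells RBBP4 and HDAC1 were the only neighbours in the order whose libraries overlapped. GATAD2A ranged from 17.6 to 25.9 FPKM, MTA1 from 14.3 to 17.0 and HDAC2 from 13.4 to 15.1. MTA3 at 4.98 to 7.63, CHD4 at 2.42 to 3.71 and GATAD2B at 1.05 to 2.13 FPKM were lowest. ZMYND8 stood between HDAC2 and MTA3 in both control groups, above all subunits with overexpression, and between MTA3 and CHD4 with knockdown.

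The low places of CHD4 and GATAD2B carry a limit of read placement, whose part in these levels was not tested. Exons of another annotated gene, ENSG00000285238, cover 46.9% of the exon bases of CHD4 on the same strand, and that gene itself had 0 to 1 counts per library. Of the 31-base sequences of GATAD2B, 93.0% also occur on an alternate contig of the reference scanned here. Whether the reads were aligned to such contigs is not stated. Another scale divided all counts of a gene by part of its exon length. That part was the length whose 31-base sequences occur once and lie outside other genes of the same strand. It assumes that every counted read came from that part, which was not checked, and its levels are too high where reads fell elsewhere. On this scale GATAD2B was at 25.6 FPKM in parental cells, between HDAC1 and GATAD2A, and CHD4 at 5.60 FPKM. Over that length, which was set after the data were seen, RBBP4 was above MTA2 in the overexpression and knockdown groups and overlapped with it in KD control. RBBP4 has 22.1% of its 31-base sequences elsewhere on the primary chromosomes and lies across 22.8% of its exon bases from SYNC on the other strand, and without a stated strand setting reads of the pair cannot be told apart. Fold changes of these genes within a comparison rest on the reads that were counted.

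The balance of ZMYND8 to each subunit followed from these levels. In parental cells ZMYND8 had 0.218 ± 0.004 (SD, n = 2) of the level of MTA2, 0.284 ± 0.006 of RBBP4, 0.540 ± 0.022 of GATAD2A and 1.91 ± 0.05 times that of MTA3. With overexpression the same ratios were 12.3 ± 0.4, 13.6 ± 0.01, 29.0 ± 2.1 and 73.7 ± 4.8. Which parts of the ZMYND8 exons the construct carries is not stated. Levels use the full exon length, so those with overexpression may rest on another effective length than the others. In KD control the ratios to MTA2 and GATAD2A were 0.172 ± 0.011 and 0.347 ± 0.021, and with knockdown 0.095 ± 0.002 and 0.161 ± 0.004. ZMYND8 was above every one of the 9 subunits with overexpression. In the other 3 groups it was below MTA2, RBBP4, HDAC1, GATAD2A, MTA1 and HDAC2, and with knockdown also below MTA3. With all counts divided by the uniquely placed exon length, ZMYND8 was below GATAD2B in these 3 groups (9.64 against 25.6 FPKM in parental cells). On that scale, with its assumption above, it was also below CHD4 in KD control (8.12 against 8.59 FPKM) and knockdown (4.23 against 7.86 FPKM), where it was the lowest of the 10. These are ratios of RNA levels, not of protein.

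**Figure D2:**
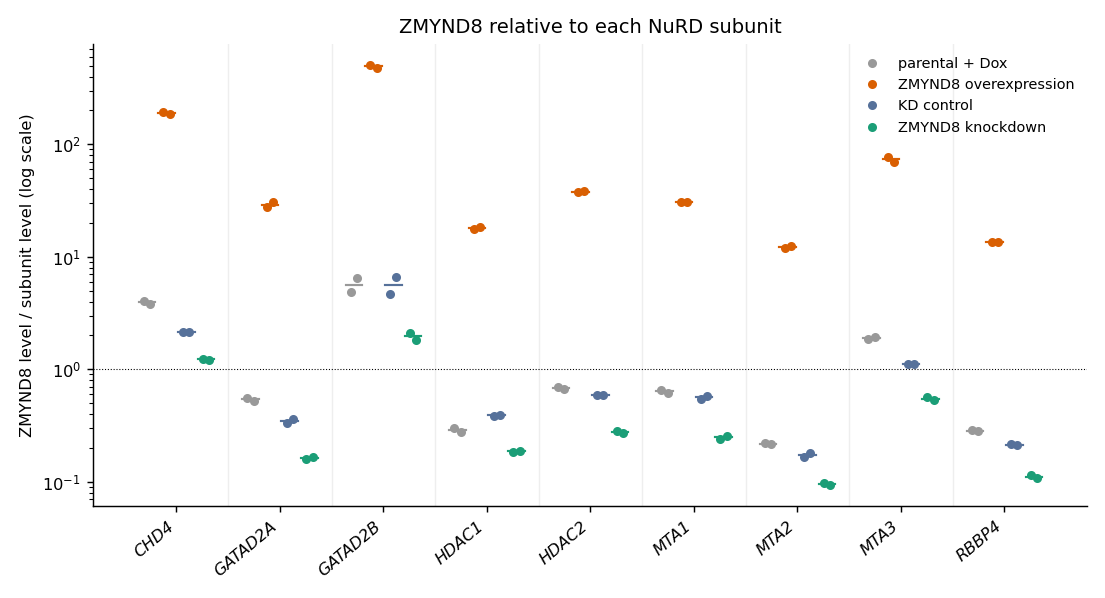
Ratio of the ZMYND8 level to the level of each NuRD subunit in the 8 libraries, on a log axis, with the dotted line at equal levels. Points are libraries and short lines are means of 2. The overexpression libraries lie above 1 for all 9 subunits, while MTA2, RBBP4, HDAC1, GATAD2A, MTA1 and HDAC2 lie below 1 in the other groups. The places of GATAD2B and CHD4 above 1 rest on their full exon length.

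With ZMYND8 overexpression against parental cells, 4 of the 9 subunits rose, 1 fell and 4 did not pass the test. MTA3 rose most, followed by RBBP4, MTA1 and CHD4, and GATAD2B fell. Together with ZMYND8, 5 of the 10 genes were higher and 1 was lower at an adjusted p below 0.05. Over all 20835 genes tested 31.7% were higher and 29.1% lower, and 71.1% of genes at least as abundant as GATAD2B passed in either direction, so the share of these genes that moved was not above the background. The median log2 fold change of the 9 subunits was 0.12 and that of all genes tested 0.03. The study's thresholds were read here as an adjusted p below 0.05, a log2 fold change of at least 1 in size and a mean count above 20. Of the 10 genes only ZMYND8 was past them, as were 18.6% of all genes. All 10 genes had groups that did not overlap on counts scaled within the comparison, as did 80.2% of all genes.

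Among the scaffold subunits, MTA3 was at 5.14 and 4.82 FPKM in parental cells and 6.74 and 7.38 FPKM with overexpression. Its log2 fold change was 0.60 ± 0.06 (SE, adjusted p = 1.45e-05). Its mean was 50.5% higher on counts scaled within the comparison and 41.9% higher in FPKM. MTA1 was at 14.7 and 15.3 FPKM against 16.9 and 17.1 FPKM, a log2 fold change of 0.27 ± 0.05 (adjusted p = 0.000618). All overexpression libraries were above all parental libraries for both genes. MTA1 has an exon GC content of 64.8%, and after a trend over length and GC content was removed its log2 fold change was -0.14 (adjusted p = 0.0309), so its direction depends on that step. MTA2, the most abundant, was at 43.5 and 43.6 FPKM against 43.1 and 41.3 FPKM. Its log2 fold change was 0.05 ± 0.05 (adjusted p = 0.434), while the FPKM means differed by -0.05 on the log2 scale, so no direction can be given. With the trend taken out it passed as lower (-0.15, adjusted p = 0.0161), and with upper quartile scaling (0.12) or total counts alone (0.30) as higher.

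Of the other subunits, RBBP4, the histone-binding WD40 protein, was at 33.4 and 33.5 FPKM in parental cells and 38.2 FPKM in both overexpression libraries. The log2 fold change was 0.28 ± 0.05 (SE, adjusted p = 0.000362). CHD4, the remodelling ATPase, went from 2.36 and 2.47 FPKM to 2.70 and 2.77 FPKM, a log2 fold change of 0.27 ± 0.06 (adjusted p = 0.00237). That call was lost with the length and GC trend taken out (0.13, adjusted p = 0.0852). GATAD2B was at 2.00 and 1.46 FPKM in parental cells and 1.02 and 1.08 FPKM with overexpression, a log2 fold change of -0.62 ± 0.14 (adjusted p = 0.00268). The gap between the parental libraries was wider than the gap from the lower of them to the treated ones, and without parental replicate 1 the log2 fold change was -0.39 (adjusted p = 0.0165). Its paralog GATAD2A, which binds the MYND domain of ZMYND8, did not pass, at 17.3 and 17.9 FPKM against 18.9 and 17.1 FPKM (0.12 ± 0.06, adjusted p = 0.0778, and -0.08 with the length and GC trend taken out).

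Neither deacetylase passed in this comparison. HDAC1 was at 31.8 and 33.8 FPKM against 29.6 and 28.5 FPKM, a log2 fold change of -0.09 ± 0.05 (SE, adjusted p = 0.166). HDAC2 was at 13.7 and 14.1 FPKM against 13.8 and 13.6 FPKM, a log2 fold change of 0.07 ± 0.05 (adjusted p = 0.218). On the FPKM scale the libraries of HDAC2 overlapped and the means differed by -0.02 on the log2 scale, the other way. The scaling matters for such small differences. With total counts alone the median of all genes moved from 0.03 to 0.29, 9 members then passed as higher and 1 as lower, and HDAC1 turned to 0.17, while with the length and GC trend taken out it passed at -0.17. Upper quartile scaling gave 8 higher and 1 lower. HDAC2 passed as higher with either of these scalings and with the length and GC trend taken out, with or without the replicate block. Its fitted value was between 0.05 and 0.32 in all settings.

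**Figure D3:**
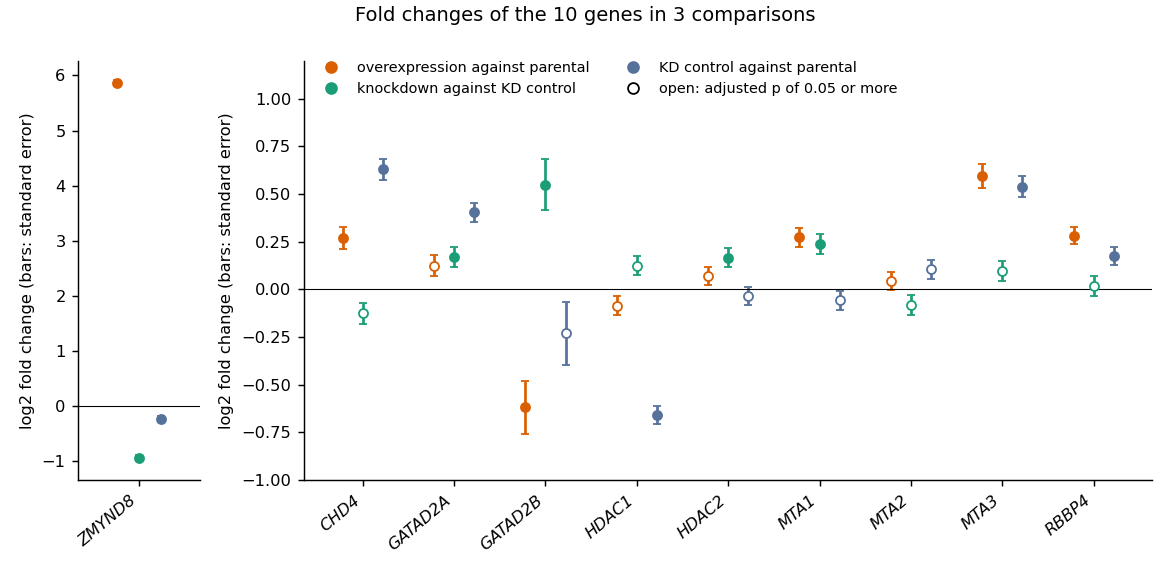
Log2 fold changes of ZMYND8 (left, own axis) and the 9 NuRD subunits (right) in 3 comparisons. Points are estimates of edgeR's quasi-likelihood fit and bars their standard errors, and open points did not reach an adjusted p below 0.05. GATAD2B lies at -0.62 with overexpression and 0.55 with knockdown, and MTA3 at 0.60 and 0.09.

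With ZMYND8 knockdown against KD control, 4 of the 9 subunits rose and none fell. They were GATAD2B, MTA1, GATAD2A and HDAC2, and with ZMYND8 itself as the lower gene 5 of 10 passed. Of 19789 genes tested 13.4% were higher and 10.8% lower, and of genes at least as abundant as GATAD2B 37.9% passed. The median log2 fold change of the 9 subunits was 0.12, against -0.01 for all genes tested. None of the 10 was past the study's thresholds, as 1.96% of all genes were, since ZMYND8 stayed just short of a log2 fold change of 1. Groups did not overlap for 9 of the 10 genes and for 61.6% of all genes. Several of these calls did not hold in other settings. Without KD control replicate 2 none of the 4 passed, without KD control replicate 1 2 passed, with total counts alone or with the length and GC trend taken out 2 passed, and with no filter on low counts 1 passed. CHD4 passed as lower with total counts alone (-0.18) and with the length and GC trend taken out (-0.17). With the replicate block, with or without that trend taken out, CHD4 passed as lower and HDAC1 as higher.

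GATAD2B was at 1.68 and 1.23 FPKM in KD control and 1.96 and 2.29 FPKM with knockdown, a log2 fold change of 0.55 ± 0.13 (SE, adjusted p = 0.0123). The KD control libraries were again unequal, and without KD control replicate 2 the log2 fold change was 0.34 (adjusted p = 0.0958). MTA1 was at 14.4 and 14.1 FPKM against 17.3 and 16.2 FPKM, a log2 fold change of 0.24 ± 0.05 (adjusted p = 0.00803). Both knockdown libraries lay above both controls. GATAD2A was at 23.7 and 22.4 FPKM against 26.3 and 25.4 FPKM (0.17 ± 0.05, adjusted p = 0.0389). HDAC2 was at 13.2 and 13.6 FPKM against 14.8 and 15.3 FPKM (0.17 ± 0.05, adjusted p = 0.0337).

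The remaining 5 subunits did not pass. CHD4 was at 3.65 and 3.76 FPKM in KD control and 3.36 and 3.43 FPKM with knockdown. Its log2 fold change was -0.13 ± 0.06 (SE, adjusted p = 0.132), though it passed in the settings given above. HDAC1 was at 20.6 FPKM in both controls against 22.8 and 22.1 FPKM, 0.12 ± 0.05 on the log2 scale (adjusted p = 0.0928). MTA3 had 0.09 ± 0.05 (adjusted p = 0.227), with 7.07 and 7.25 FPKM against 7.40 and 7.86 FPKM. MTA2 had -0.08 ± 0.05 (adjusted p = 0.311) and RBBP4 0.02 ± 0.05 (adjusted p = 0.855). Levels of RBBP4 were 36.8 and 37.9 FPKM in the controls and 36.5 and 39.0 FPKM with knockdown, so its groups overlapped.

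The effect of overexpression minus that of knockdown was tested in 1 fit of all 8 libraries. The difference was above 0 for ZMYND8 (6.80 ± 0.08, SE), MTA3 (0.49 ± 0.09, adjusted p = 0.000242), CHD4 (0.39 ± 0.08, adjusted p = 0.000755) and RBBP4 (0.26 ± 0.07, adjusted p = 0.00778). It was below 0 for GATAD2B (-1.18 ± 0.22, adjusted p = 0.000385) and HDAC1 (-0.22 ± 0.07, adjusted p = 0.0176). Over all 22619 genes 24.6% had a positive and 24.4% a negative difference past the test, and 65.5% of genes at least as abundant as GATAD2B passed in either direction. MTA1 rose in both experiments, and its effects differed by 0.03 ± 0.07 (adjusted p = 0.77). GATAD2A, HDAC2 and MTA2 did not pass either. Of the 9 subunits GATAD2B was the 1 with opposite calls in the 2 experiments, lower with more ZMYND8 and higher with less. Both calls carry its read placement limit, and the knockdown call was lost with no filter on low counts. Without KD control replicate 2 the knockdown value of GATAD2B was 0.34. Between the controls, where ZMYND8 was lower in KD control, GATAD2B did not pass (-0.23). The call of HDAC1 was lost without parental replicate 2 (-0.17), overexpression replicate 2 (-0.20) or knockdown replicate 1 (-0.20), and that of RBBP4 without a filter on low counts (0.18). With total counts alone 8 members were positive and 1 was negative, as the median of all genes moved from 0.06 to 0.37.

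The controls of the 2 experiments were compared because the levels above differ between them. KD control shares its libraries with the knockdown comparison and parental with the overexpression comparison, and experiment, vector and Dox cannot be told apart here. Against parental cells, CHD4 (0.63 ± 0.06, SE), MTA3 (0.54 ± 0.05), GATAD2A (0.40 ± 0.05) and RBBP4 (0.17 ± 0.05) were higher in KD control. HDAC1 (-0.66 ± 0.05) and ZMYND8 (-0.23 ± 0.05) were lower, and the adjusted p of these 6 was at most 0.0071. GATAD2B, HDAC2, MTA1 and MTA2 did not pass. MTA3, RBBP4 and CHD4, called higher with overexpression, were thus also higher in this control, where ZMYND8 was lower. MTA1 (-0.06), also called higher with overexpression, was not. MTA3 was at 4.98 FPKM in parental cells, 7.06 FPKM with overexpression and 7.16 FPKM in KD control. Of 20385 genes 33.6% were higher and 36.2% lower, 21.6% were past the study's thresholds against none of the 10 members, and 80.3% of genes at least as abundant as GATAD2B passed. Groups did not overlap for 9 of 10 members and 85.3% of all genes. The value of RBBP4 became -0.035 with the length and GC trend taken out. HDAC1 was at 32.8 ± 1.4 FPKM in parental cells and 20.6 ± 0.03 FPKM in KD control (SD, n = 2), a gap between controls beside which its values of -0.09 and 0.12 with changed ZMYND8 are small.

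The share of each paralog in its family was then computed per library from the levels per length. With 2 against 2 libraries the exact permutation test, two-sided, cannot go below p = 0.333, so the shares are given as values. In the MTA family, MTA2 made up 68.7% and 68.5% in parental cells and 64.6% and 62.8% with overexpression, while MTA3 went from 8.12% and 7.56% to 10.1% and 11.2%. With knockdown the MTA2 share was 63.5% and 65.0% against 69.0% and 67.8% in KD control, and MTA1 took 25.6% and 23.6% against 20.8% and 21.3%. The MTA2 share was thus lower in the overexpression and knockdown libraries than in their controls, without overlap. No background of shares was computed, and for single genes 80.2% and 61.6% of all genes did not overlap in these comparisons. MTA2 itself passed in neither, and the MTA1 call with overexpression depends on the length and GC trend. GATAD2A held 89.7% and 92.5% of the GATAD2 pair in parental cells, 94.9% and 94.0% with overexpression, 93.4% and 94.8% in KD control and 93.1% and 91.7% with knockdown, shares that carry the read placement limit of GATAD2B. With all counts divided by the uniquely placed exon length, GATAD2B was instead above GATAD2A in parental cells (25.6 against 18.65 FPKM) and with knockdown (31.54 against 27.46 FPKM). On that length it was below GATAD2A with overexpression (15.62 against 19.07 FPKM), and their KD control libraries overlapped. HDAC1 held 69.9% and 70.6% of the deacetylase pair in parental cells and 68.3% and 67.6% with overexpression. In KD control and knockdown it held 59.0% to 60.9%, and those groups overlapped.

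**Figure D4:**
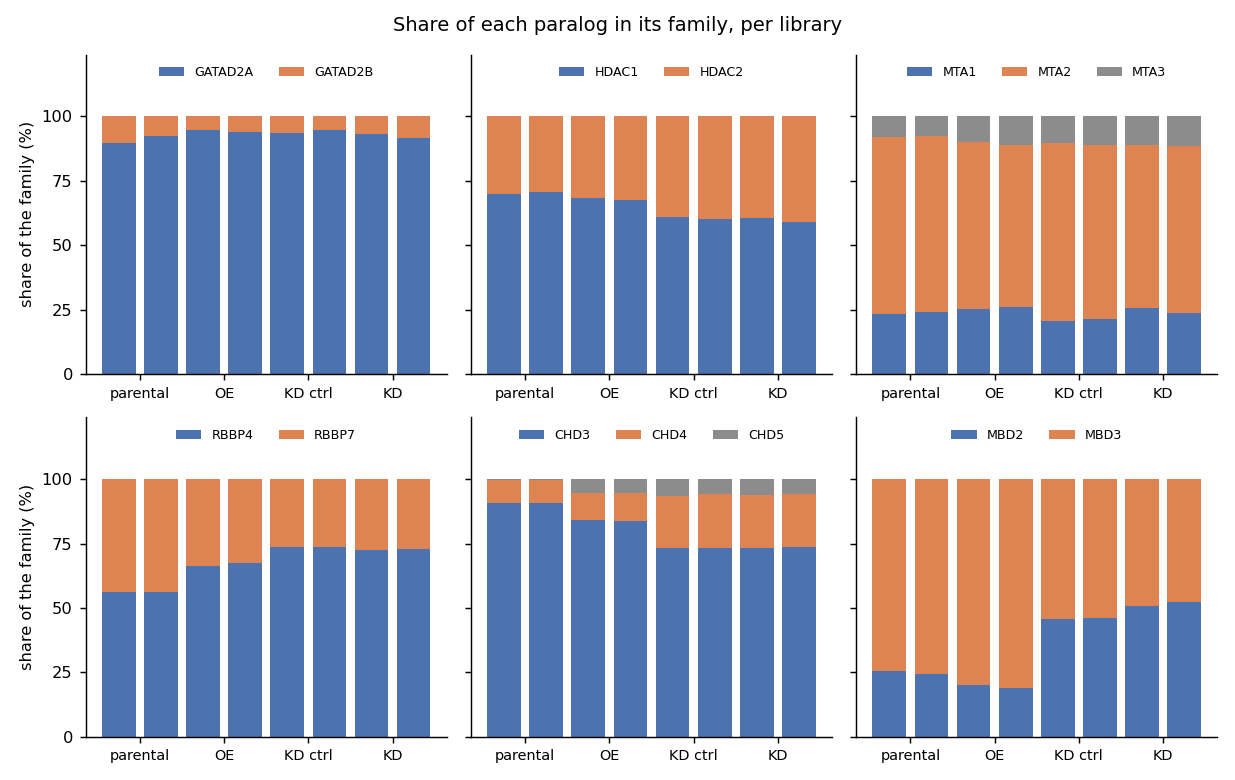
Share of each paralog in its family by level per kilobase, in percent, with 1 bar per library and 2 bars per group (OE, overexpression; KD, knockdown). RBBP4 goes from 56.4% and 56.3% in parental cells to 66.1% and 67.5% with overexpression. MBD2 holds 25.7% and 24.3% of its pair in parental cells and 45.9% and 46.1% in KD control. The shares of GATAD2B and CHD4 rest on their full exon length.

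NuRD also has 6 subunits outside the 10 genes, and their balance with the members shifted in places. RBBP7, the paralog of RBBP4, was at 25.9 and 26.0 FPKM in parental cells and 19.5 and 18.4 FPKM with overexpression, a log2 fold change of -0.36 ± 0.05 (SE, adjusted p = 8.95e-05). As RBBP4 rose, its share of the pair went from 56.4% and 56.3% to 66.1% and 67.5%. CHD5, a remodeller known from nervous tissue and as a gene of the chromosome 1 region often lost in neuroblastoma, had 35 and 56 counts in parental cells and 752 and 621 with overexpression. Its log2 fold change was 3.87 ± 0.15 (adjusted p = 4.73e-09), with levels of 0.0823 and 0.110 FPKM against 1.34 and 1.33 FPKM. The CHD4 share of the CHD3, CHD4 and CHD5 family went from 8.90% and 8.96% to 10.7% and 10.9%, with the CHD4 limit above. CHD3 still made up 84.0% and 83.8% of that family by full exon length. With all counts divided by the uniquely placed length, CHD3 was at 21.25 FPKM and CHD4 at 6.34 FPKM with overexpression.

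Over those 6 subunits, 2 were higher (CHD5 and MBD3) and 4 lower (RBBP7, MBD2, CDK2AP1 and CHD3) with overexpression, beside 31.7% and 29.1% of all genes. MBD2 was at -0.32 ± 0.07 (SE), CDK2AP1 at -0.23 ± 0.06, CHD3 at -0.12 ± 0.05 and MBD3 at 0.14 ± 0.05. These calls depend on the scaling. With total counts alone RBBP7 (-0.11, adjusted p = 0.0667) and MBD2 (-0.06, adjusted p = 0.432) did not pass, CHD3 turned to 0.13 and CDK2AP1 to 0.024. CHD3 did not pass with upper quartile scaling (-0.04), nor MBD3 with DESeq2 (adjusted p = 0.0605). With knockdown 1 of the 6 passed, beside 13.4% of all genes higher and 10.8% lower. MBD2 rose from 7.90 and 7.62 FPKM to 9.90 and 9.81 FPKM, a log2 fold change of 0.35 ± 0.05 (adjusted p = 0.00104). MBD2 was thus higher with knockdown and, except with total counts alone, lower with overexpression. For these 6 subunits only the other scalings and DESeq2 were run. The length and GC trend, the replicate block and leaving out a library were not. The difference of the 2 effects on MBD2 was -0.67 ± 0.09 (adjusted p = 1.05e-05). CHD5 was at 621 and 587 counts in KD control and 509 and 478 with knockdown (-0.24 ± 0.10, adjusted p = 0.105), and its level in KD control was itself 3.55 log2 units above parental cells.

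**Figure D5:**
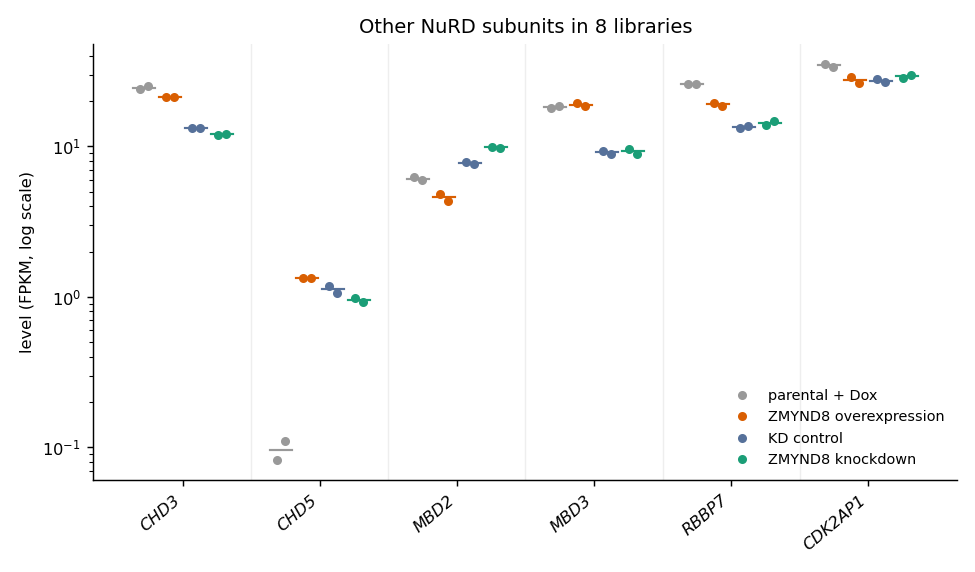
Level of 6 further NuRD subunits in the 8 libraries, in FPKM on a log axis, with points for libraries and short lines for means of 2. CHD5 lies near 0.1 FPKM in parental cells and between 0.92 and 1.34 FPKM in the other 3 groups. RBBP7, CHD3 and MBD3 are lower in KD control, and likewise with knockdown, than in parental cells.

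Partners and recruiters of the members were read in the same way. Of 9 genes whose proteins are known with ZMYND8, 1 was higher and 4 lower with overexpression, with a median log2 fold change of -0.03, where 31.7% and 29.1% of all genes were. RCOR2, a CoREST-family corepressor, rose from 67 and 125 counts to 1322 and 1241 (3.71 ± 0.16, SE, adjusted p = 9.87e-09). Among the lower were ZNF687 (-0.15), ZNF532 (-0.14) and KDM5C (-0.13). With knockdown 2 of the 9 were higher, ZNF532 (0.26) among them, and none lower, against 13.4% and 10.8% of all genes. The effects of overexpression and knockdown differed by -0.40 ± 0.07 for ZNF532 (SE, adjusted p = 0.000139). Of 9 transcription factors that can bring NuRD to DNA, 5 had enough counts to be tested in every comparison. With overexpression SALL4 (1.25 ± 0.16, SE), SALL2 (0.61 ± 0.05) and ZFPM1 (0.47 ± 0.09) rose, ZNF827 fell (-0.27 ± 0.06) and BCL11A did not pass (0.23 ± 0.12). KD control was also above parental cells for RCOR2 (1.05), SALL4 (0.93) and SALL2 (0.17), beside 33.6% of all genes. ZFPM1, ZNF827 and BCL11A did not pass between these controls. SALL1, BCL11B and ZFPM2 could be tested there only through their counts in the overexpression libraries, so they had to come out higher and are given as counts. For SALL1 both parental libraries held 2 counts, and with overexpression there were 82 and 78, which is at least 24-fold higher against a floor of 3 counts per library. BCL11B had 1 and 3 counts against 89 and 88, at least 26-fold higher. ZFPM2 had 21 and 10 counts against 75 and 69. With knockdown BCL11A was the 1 of the 5 that passed (0.77 ± 0.10, adjusted p = 0.000412). Of 12 genes of other class I deacetylase complexes, 5 were higher and 4 lower with overexpression and 3 higher and 1 lower with knockdown, shares to be read against the same background, with TBL1XR1 at -0.42 in the former and TBL1XR1 (0.37) and KDM1A (0.26) the farthest from 0 in the latter.

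Proliferation markers are given beside the members because several NuRD genes are known to be higher in dividing cells. Against the same background, of the 8 markers 2 were higher and 3 lower with overexpression, led by MCM3 (0.58) and CCNB1 (-0.36), and 2 were lower with knockdown, MKI67 (-0.36) and CDK1 (-0.33). In KD control against parental cells 7 of 8 were lower, beside 36.2% of all genes, with a median of -1.22, from CCNB1 (-1.63), MCM5 (-1.45), MCM2 (-1.32), PCNA (-1.26), TOP2A (-1.17) and CDK1 (-1.10), which were past the study's thresholds, to MCM3 (-0.69). MKI67 was higher (0.53). In that comparison HDAC1 was lower and CHD4 and MTA3 were higher. The part of proliferation in the differences of the members was not tested.

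The genes most like ZMYND8 over the 8 libraries, by Pearson's r of log2 CPM, counts scaled by depth, among 13548 genes, were TMEM38A (0.999), ERBB2 (0.999) and VGF (0.998). Those most like CHD4 were HEATR5B (0.996), WDR35 (0.996) and BCL2 (0.996). The points share libraries and fall into 4 groups, so for ZMYND8 these values mostly restate the height of the overexpression libraries.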

How the data were processed

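Total RNA was measured in 8 libraries, mapped to 4 groups by their titles. The deposited values are raw counts, which the authors did not normalize. Per the study's methods, reads were trimmed with Trim_Galore, aligned to GRCh38 (hg38) with HISAT2 and counted with featureCounts; the strand setting is not given in the sources used here. Of 60662 lines 3 without a gene identifier or whole counts were left out. Symbols, GC content and overlaps came from GENCODE release 44. No 2 replicates agreed within counting noise (chi-square per degree of freedom 6.05 to 8.86). Each comparison was filtered with filterByExpr, scaled with TMM and fitted in edgeR 4.0.16 (R 4.3.3), whose quasi-likelihood test is two-sided, with Benjamini-Hochberg adjustment over all genes tested. "Passed", "rose" and "fell" mean an adjusted p below 0.05. Levels in FPKM were scaled by TMM over all 8 libraries and all genes, with no filter, and by summed exon length, and shares and ratios come from them. Exact permutation tests used scipy 1.17.1. Scripts were tested on simulated data.

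Alternatives were other scalings, DESeq2 1.42.0, no filter, 1 fit of all libraries, a replicate block, a loess trend over length and GC content taken out, and each library left out. Of these, single genes outside the members were rerun only with other scalings and DESeq2, and not all of them. The 10 members, the lists (other NuRD subunits, ZMYND8 partners, NuRD recruiters, other class I deacetylase complexes, proliferation and cell state markers) and the tests were chosen with earlier results of these data known. Genes were named as follows: all members; from the 5 lists other than cell state markers, which are given by sums, the genes past the study's thresholds or else the 2 with the largest change that passed; and the 3 genes most like ZMYND8 and CHD4 with a mean count above 100. Some genes of the lists that this rule names are not reported here. The values of SALL2, ZFPM1, ZNF827, PRRX1, SNAI2, VIM, CD44, YAP1, ZNF687, ZNF532, KDM5C and of all 6 further NuRD subunits were added after they were seen. So were those of RCOR2 and SALL4 between the controls.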

Additional observations from a re-analysis of the deposited data

How the results depend on the processing

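With overexpression against parental cells, members that passed as higher numbered 5, but 8 with upper quartile scaling and 9 with total counts alone. Members lower numbered 1, but 4 with the length and GC trend taken out, also with the replicate block, and 0 with CHD4 and GATAD2B left out, a choice made after seeing the data. Leaving out 1 library gave 5 to 6 higher and 1 lower. With knockdown 4 were higher, but 2 with total counts alone, 1 without a filter and 2 with the trend taken out, and 0 to 3 with 1 library left out. The lower count was 1, but 2 with total counts, with the replicate block and with the trend taken out, with or without the block, and 1 whichever library was left out. In the difference of effects 4 were positive, 8 with total counts alone, and 2 negative, 1 with upper quartile scaling, with total counts or with CHD4 and GATAD2B left out, and 1 to 2 with 1 library left out. KD control against parental gave 4 to 5 higher and 2 to 3 lower with 1 library left out.

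Among genes that passed in either fit, values that changed sign in the overexpression comparison were HDAC1 with total counts (0.17), MTA1 (-0.14) and MTA2 (-0.15) with the trend taken out, the same with the replicate block (-0.14 and -0.15), and, among added alternatives, CHD3 (0.13) and CDK2AP1 (0.024) with total counts. Between the controls MTA1 turned to 0.32 and RBBP4 to -0.035 with the trend taken out. In the difference of effects GATAD2A (0.27), HDAC1 (0.10) and HDAC2 (0.22) turned with total counts. Smaller values that passed in neither fit also changed sign, such as GATAD2A with overexpression (-0.08 with the trend taken out). The cause was not tested. ZMYND8, MTA3, RBBP4 and GATAD2B with overexpression kept their direction under every alternative run, and their call in each that used all libraries. GATAD2B ranged from -0.84 to -0.37, with its read placement limit unchanged.

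Same-numbered libraries deviated together with a correlation of 0.05 (overexpression), 0.20 (knockdown) and -0.10 (controls), and nothing in the labels makes a number a shared batch. In the knockdown comparison the replicate block moved genes that passed from 4799 to 6318, members higher from 4 to 5 (HDAC1 added) and lower from 1 to 2 (CHD4 added). A crossed pairing of the controls gave 14309 genes against 14244. Both arms hold 2 libraries, which limits all calls. With 1 library left out, the lone one was assumed to vary like the others.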
